A study of Mus musculus with 24 samples.

Results

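Erythropoietin (Epo) and 9 other genes of the hypoxia response were followed in the kidneys of mice with polycystic kidney disease and of their noncystic counterparts. The 10 genes, Epo, Hif1a, Epas1, Vegfa, Egln1, Egln3, Ankrd37, Adm, Car9 and Bnip3, were taken by symbol from a table of read counts for 54532 genes, and each symbol stood on 1 row. All 10 passed the limit on low values and were among the 22570 genes tested. RNA-seq had been run on whole kidneys of 24 C57BL/6 mice aged 18 days, with 1 library for each mouse.

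The RC allele of Pkd1 was present in every mouse. It is a missense allele that gives less functional polycystin-1. RC/+ mice had a floxed second allele and no Cre, so that allele stayed intact, and they were labelled control. RC/- mice carried Ksp-Cre as well, which is driven by the promoter of the tubule cadherin gene Cdh16, and they were labelled cystic. The second allele is therefore lost in tubule epithelium and not in interstitial cells. Where cystic and noncystic mice are compared, effects of Cre and of the cystic genotype cannot be told apart. In the D18 and D53 mice the RC allele lacked the motif in the 3′ UTR of Pkd1 to which miR-17, a repressive microRNA, binds. The RC/- D18 and RC/- D53 mice carried Ksp-Cre too. The paper reports nearly complete relief of cystic disease in such edited mice at this age. Said of them below, cystic therefore names the RC/- genotype and not the state of the kidney. D18 came from founder 3 and D53 from founder 2, so each edited line goes back to 1 founder. The founder of the unedited mice is not given. Where edited and unedited mice are compared, effects of the deletion and of the founder line cannot be told apart. There were 3 RC/+, 3 RC/+ D18 and 3 RC/+ D53 mice, and 5 each of RC/-, RC/- D18 and RC/- D53. Libraries are named by the numbers 4 to 27 that the labels give them.

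Oxygen is sensed through hypoxia-inducible factors (HIFs), which pair an unstable α subunit with a stable partner. When oxygen is plentiful, prolyl hydroxylases of the Egln family mark the α subunits for destruction by the VHL ubiquitin ligase. When oxygen falls, the α subunits persist and switch on target genes. In the kidney, fibroblast-like cells between the tubules make Epo, the hormone that drives red cell production, chiefly under the control of HIF-2, whose α subunit Epas1 encodes. Because α subunits are regulated mainly as proteins, the mRNA of Hif1a or Epas1 does not report HIF activity.

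Total counts were 20.4 to 30.8 M per library. Pkd1 itself was at 38.4 to 71.4 CPM over the 24 libraries (CPM, counts scaled to the total count of each library). The RC/+ range, 49.9 to 51.5 CPM, lay below those of RC/+ D18, RC/+ D53, RC/- and RC/- D18 and within that of RC/- D53. This total does not test the labels, since the deletion takes place in some of the cells and the reads were counted over the whole gene. Kidney identity was plain from its markers, with the 6 proximal tubule genes summing to 5604 to 6073 CPM in RC/+. Of the cystic edited mice, RC/- D18 20 to 22 and every RC/- D53 library (numbers 20 to 27) stood apart in skeletal muscle genes, whose 6 markers summed to 147 to 194 CPM there and to 5.27 to 9.36 CPM in the other 16 libraries. For the 10 genes, where a fit with these libraries as a covariate, or without them, ended a call, turned a direction or moved a value by over 1.5 times, its value is given beside the result. As every RC/- D53 library is among them, the covariate could be estimated only from RC/- D18 18 and 19 against RC/- D18 20 to 22. Each RC/- D53 value with the covariate, also for the lists below, therefore rests on that contrast within RC/- D18.

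The core letters to which HIFs bind, ACGTG or GCGTG on either strand, were searched in the 250 bases before the start of each gene in the RefSeq table for GRCm38.p6. The table held 10 such windows for 9 of the genes (2 for Vegfa, none for Epas1), and 9 of these 10 windows held the letters, against 38.6% of all 32851 windows. A match is a description of the letters and not a bound site. The genes were chosen as hypoxia genes, and the background was not matched for base content. The shares were therefore not compared by a test. The windows of Epo and Bnip3, which were lower in RC/- than in RC/+ kidneys, and of Egln3, which was higher, are shown on the gene's own strand, 5′ to 3′, with the core letters in capitals. Overlapping copies run together, as in the run of 6 capitals of Bnip3. They lie on the minus strand at chr5:137485817-137486066, chr7:138909507-138909756 and chr12:54203875-54204124.
Epo: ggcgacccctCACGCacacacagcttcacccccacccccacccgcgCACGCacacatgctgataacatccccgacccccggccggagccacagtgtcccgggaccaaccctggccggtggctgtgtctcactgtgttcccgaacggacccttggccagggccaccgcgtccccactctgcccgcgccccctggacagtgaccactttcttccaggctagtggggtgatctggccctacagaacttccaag
Bnip3: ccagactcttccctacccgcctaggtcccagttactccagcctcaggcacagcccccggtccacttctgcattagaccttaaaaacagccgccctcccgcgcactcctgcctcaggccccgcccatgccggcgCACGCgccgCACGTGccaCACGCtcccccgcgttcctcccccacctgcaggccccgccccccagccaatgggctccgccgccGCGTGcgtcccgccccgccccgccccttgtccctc
Egln3: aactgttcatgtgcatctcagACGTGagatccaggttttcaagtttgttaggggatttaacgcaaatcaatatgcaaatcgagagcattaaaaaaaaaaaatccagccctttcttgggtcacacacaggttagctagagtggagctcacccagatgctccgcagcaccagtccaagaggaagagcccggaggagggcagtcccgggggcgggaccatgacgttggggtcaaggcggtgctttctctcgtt
Epo held 2 copies, whose first bases lie 240 and 204 bases before the start, both as CACGC, the reverse complement of GCGTG. Bnip3 held 5, the nearest at 35 bases, and Egln3 held 1 at 229 bases. Of the others, Car9 held 1 at 18 bases, Ankrd37 4, Hif1a 3, and Adm and Egln1 2 each. The Vegfa window before the 5′ end of the gene (chr17:46032378-46032627) held 0. The other Vegfa window (chr17:46025164-46025413), which held 2, lies inside the gene as GENCODE places it (chr17:46016993-46032369). The windows of Epo, Hif1a and Ankrd37 also lie inside the GENCODE spans of these genes. The elements known to drive Epo in the kidney and in the liver lie outside this window, so it does not show them.

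Epo, which GENCODE places at chr5:137483020-137533242 of GRCm38 on the minus strand, was the least abundant of the 10 genes and the one that differed most between groups. In the RC/+ libraries it stood at 1.71, 2.39 and 0.883 CPM, from 42, 54 and 22 counts, with a mean of 1.66 ± 0.754 (SD, n = 3). The 5 RC/- libraries held 10, 2, 12, 4 and 4 counts, or 0.428, 0.0845, 0.477, 0.168 and 0.177 CPM, with a mean of 0.267 ± 0.174 (SD, n = 5). Every RC/- library was below every RC/+ library. In whole kidneys, fewer cells of a type and less RNA per cell cannot be told apart. At these counts the counting error is wide. The exact (Clopper-Pearson) 95% interval of the lowest library, RC/- 14 with 2 counts, was 0.0102 to 0.305 CPM, and that of the highest, RC/- 15 with 12 counts, was 0.246 to 0.833 CPM. The RC/+ 6 library, the lowest of its group, had an interval of 0.553 to 1.34 CPM, and these intervals cover counting error only.

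**Figure D1:**
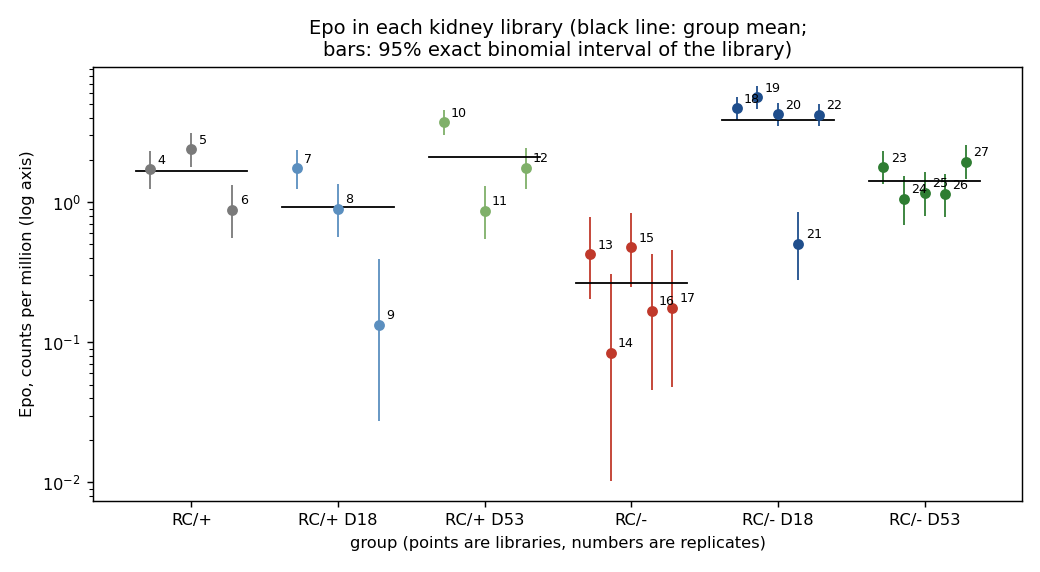
Epo in CPM on a log axis for each of the 24 libraries, in 6 groups, with the replicate number beside each point, the group mean as a black line and the exact 95% interval of each library as a bar. The 5 RC/- libraries lie at 0.0845 to 0.477 CPM, 4 of the 5 RC/- D18 libraries lie at 4.23 to 5.61 CPM, and RC/+ D18 9 and RC/- D18 21 lie far below the rest of their groups.

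RC/- D18 kidneys had the highest Epo of the 6 groups. Their libraries were at 4.69, 5.61, 4.24, 0.506 and 4.23 CPM, from 107, 117, 108, 14 and 119 counts, with a mean of 3.85 ± 1.95 (SD, n = 5). Of these, 4 lay together and library 21 lay far below, at 14 counts, just above the highest RC/- library. The exact 95% interval of library 21, 0.277 to 0.849 CPM, overlapped that of RC/- 15, 0.246 to 0.833 CPM. RC/- D53 kidneys were at 1.78, 1.06, 1.17, 1.14 and 1.95 CPM, with a mean of 1.42 ± 0.413 (SD, n = 5), all above the RC/- libraries and within the span of the noncystic groups.

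The noncystic edited groups had too wide a spread to be placed. RC/+ D18 libraries were at 1.74, 0.897 and 0.134 CPM, from 40, 22 and 3 counts, with a mean of 0.924 ± 0.804 (SD, n = 3). Library 9, with 3 counts, had an interval of 0.0276 to 0.391 CPM. RC/+ D53 libraries were at 3.72, 0.868 and 1.77 CPM, with a mean of 2.12 ± 1.46 (SD, n = 3). By group mean the order from lowest to highest was RC/-, RC/+ D18, RC/- D53, RC/+, RC/+ D53 and RC/- D18, and the ranges of each pair of neighbours in this order overlapped.

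Differences were fitted on log2 CPM with limma, with p-values adjusted over all genes tested in a comparison, and a gene was called at an adjusted p below 0.05. A prior count of 2 enters the log, so the fitted fold change of Epo understates the change where counts are low. In RC/- against RC/+, Epo differed by -2.38 ± 0.66 (SE), adjusted p = 0.00576 on the log2 scale, and the group mean in CPM was 6.23 times lower. RC/- D18 against RC/- gave 3.32 ± 0.57 (SE), adjusted p = 4.56e-05, a mean 14.4 times higher, and RC/- D53 against RC/- gave 2.22 ± 0.57 (SE), adjusted p = 0.00414, a mean 5.33 times higher. All 3 calls held under every alternative tried, including each library left out in turn. Without RC/- D18 21 the D18 value was 3.92. Without libraries 20 to 27, which leaves D18 replicates 18 and 19 alone, it was 4.04 (adjusted p = 0.000395). With libraries 20 to 27 as a covariate the D53 value was 3.45 (adjusted p = 0.0289). For Epo this covariate sets RC/- D18 18 and 19, at 4.69 and 5.61 CPM, against 20 to 22, at 4.24, 0.506 and 4.23 CPM. The low library 21 therefore enters every covariate value of Epo in RC/- D53. The 3 comparisons share the RC/- libraries and are not independent of one another.

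Within the D18 line the mean of Epo in CPM was 4.17 times that of the noncystic kidneys, but the groups overlapped. RC/- D18 against RC/+ D18 gave 2.11 ± 0.66 (SE), adjusted p = 0.253, which is not a call. This value rested on single libraries, at 1.23 without RC/+ D18 9, 2.77 without RC/+ D18 7 and 2.71 without RC/- D18 21. Within the D53 line the difference was -0.37 ± 0.66 (SE), adjusted p = 0.885, and it turned to 0.86 with libraries 20 to 27 as a covariate and to 0.14 without RC/+ D53 10. Whether the cystic difference of Epo was equal in edited and unedited mice was tested directly by an interaction contrast. For D18 it was 4.48 ± 0.93 (SE), adjusted p = 0.00158, and between 3.60 (without RC/+ D18 9) and 5.15 (without RC/+ D18 7) when single libraries were left out, with every fit past the threshold. For D53 it was 2.01 ± 0.93 (SE), adjusted p = 0.173, which did not pass, and 3.24 (adjusted p = 0.169) with libraries 20 to 27 as a covariate. The lines themselves, RC/- D53 against RC/- D18, differed by -1.10 ± 0.57 (SE), adjusted p = 0.409, by -1.70 without RC/- D18 21 and by -0.61 (adjusted p = 0.685) with the covariate.

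The genes whose pattern over the 24 libraries was most like that of Epo, by Pearson r of log2 CPM among the 15114 genes whose mean log2 CPM was 0 or more, were Btnl9 (r = 0.76), Gm28424 (0.76), Ms4a2 (0.76), Sytl3 (0.75) and Cited1 (0.74). Part of each value comes from the group means that the libraries share. Over deviations from the group means r was 0.63 for Btnl9, 0.45 for Gm28424, 0.68 for Ms4a2, 0.42 for Sytl3 and 0.09 for Cited1. These were picked as the highest values, so they carry no test.

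Of the α subunits, Epas1 was lower in the cystic kidneys and Hif1a was higher, although the call of Hif1a was lost with TMM scaling. Hif1a encodes the α subunit of HIF-1, and Epas1 that of HIF-2. Hif1a was at 163, 179 and 170.1 CPM in RC/+ and at 248, 266, 194, 200.3 and 189.9 CPM in RC/-, with every RC/- library above every RC/+ library. The difference was 0.35 ± 0.12 (SE), adjusted p = 0.0218. The call was lost with TMM library sizes (0.21, adjusted p = 0.168) and in the edgeR and DESeq2 fits, and also without RC/+ 4, RC/+ 6, RC/- 13 or RC/- 14 (adjusted p of 0.0549 to 0.082). Hif1a in RC/- D18 libraries was at 208, 174, 225, 189 and 181 CPM and in RC/- D53 libraries at 229, 210.1, 218, 178 and 263 CPM, both overlapping with RC/-. Neither difference from RC/- was a call, at -0.16 and 0.00, the latter -0.051 with libraries 20 to 27 as a covariate.

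Epas1 was at 197, 145 and 214 CPM in RC/+ and at 138, 126, 119, 124 and 134 CPM in RC/-. All 5 RC/- libraries were below the RC/+ libraries, 5 being the lowest of those, and the difference was -0.51 ± 0.12 (SE), adjusted p = 0.00204. RC/- D18 libraries, at 175, 212, 215, 159 and 154 CPM, were all above the RC/- libraries, by 0.50 ± 0.11 (SE), adjusted p = 0.000564. RC/- D53 libraries, at 153, 124, 175, 169.6 and 143 CPM, overlapped with RC/-, and the difference of 0.25 ± 0.11 (SE), adjusted p = 0.0898 was no call, though TMM sizes (0.33, adjusted p = 0.0124), edgeR and DESeq2 made it one, as did leaving out RC/- D53 24 (0.32). With libraries 20 to 27 as a covariate it was 0.40 and no call (adjusted p = 0.225).

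The oxygen sensors Egln1 and Egln3 encode the prolyl hydroxylases PHD2 and PHD3, and both are themselves HIF targets. Egln3 was the member with the largest increase in the cystic kidneys. It was at 20.3, 37.2 and 21.8 CPM in RC/+ and at 76.7, 119.6, 59.4, 64.4 and 53.5 CPM in RC/-, a group mean of 74.7 ± 26.5 (SD, n = 5) against 26.4 ± 9.39 (SD, n = 3). The lowest RC/- library was above the highest RC/+ library, and the fitted difference was 1.49 ± 0.24 (SE), adjusted p = 2.72e-05. RC/- D18 libraries were at 31.5, 23.2, 27.4, 23.5 and 22.7 CPM and RC/- D53 libraries at 27.2, 21.4, 27.4, 25.02 and 36.6 CPM, all below every RC/- library. RC/- D18 differed from RC/- by -1.49 ± 0.21 (SE), adjusted p = 3.56e-06, and the value for RC/- D53 was -1.40 ± 0.21 (SE), adjusted p = 1.63e-05. These 3 calls held under every alternative tried. The D18 interaction was -0.83 (adjusted p = 0.0992), and that of D53 was -1.04 (adjusted p = 0.0507). For D18 the threshold was passed without RC/+ 5 or RC/+ D18 8. For D53 it was passed in DESeq2 (-0.97) and in 7 of the 24 fits without 1 library, those without RC/+ 5, RC/+ D18 7, RC/+ D18 8, RC/+ D53 12, RC/- 15, RC/- 17 or RC/- D53 27.

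Egln1 differed by little. Its range was 93.9 to 97.5 CPM in RC/+ and 98.3 to 121 CPM in RC/-, a difference of 0.17 ± 0.08 (SE), adjusted p = 0.0827, and leaving out RC/- 15 gave 0.20 (adjusted p = 0.0437). It fell in RC/- D18 (-0.27, adjusted p = 0.00192) and RC/- D53 (-0.19, adjusted p = 0.0334) against RC/-, at 84.8 to 98.8 and 88.1 to 100.1 CPM, and TMM sizes, edgeR and DESeq2 called neither, with TMM values of -0.15 and -0.10. The D53 call was also lost without RC/- 13, 14 or 16 or RC/- D53 24 or 26, and in the fit to the groups compared alone (adjusted p = 0.0573) and with libraries 20 to 27 as a covariate (adjusted p = 0.334).

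**Figure D2:**
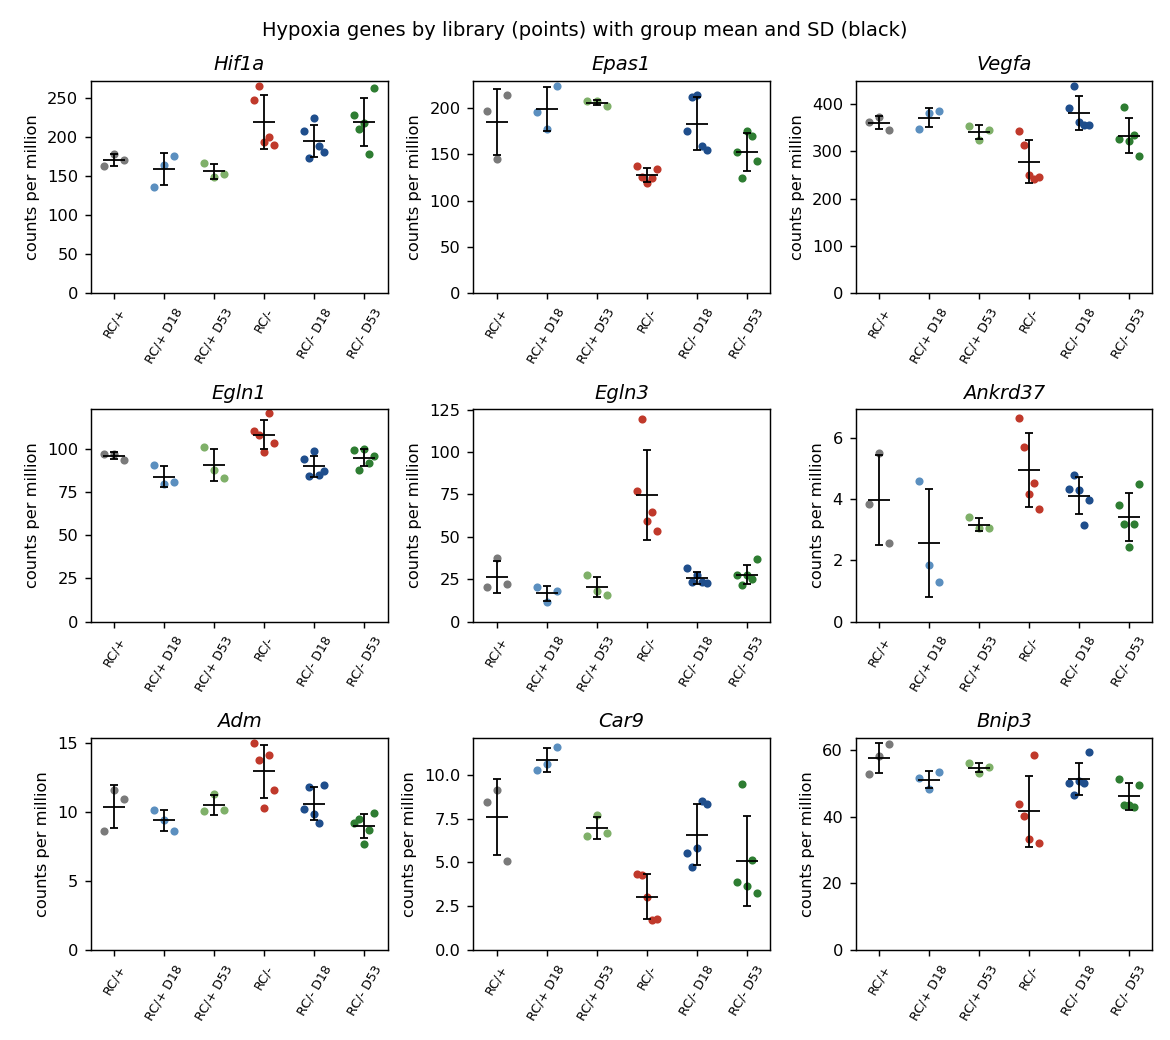
CPM of the 9 other hypoxia genes in each library (points), by group, with the group mean and SD in black and axes that start at 0. Egln3 is highest in the 5 RC/- libraries, and the group means of Epas1 and Car9 are lowest in RC/-.

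Among the targets, Vegfa, Car9 and Bnip3 were lower in the cystic kidneys, and Adm and Ankrd37 were not called. Vegfa, the main growth factor for blood vessels, was at 363, 373 and 346 CPM in RC/+ and at 342, 313, 249, 242 and 247 CPM in RC/-, all below the RC/+ libraries. The difference was -0.39 ± 0.10 (SE), adjusted p = 0.00475. The RC/- D18 libraries were at 391.6, 439, 361, 355 and 356 CPM, all above RC/-, by 0.46 ± 0.09 (SE), adjusted p = 0.000214. The RC/- D53 libraries were at 325, 393, 321, 335 and 291 CPM, which overlapped with RC/-, and the difference of 0.27 ± 0.09 (SE), adjusted p = 0.0271 lost its call with libraries 20 to 27 as a covariate (0.48, adjusted p = 0.0529), in the fit to the groups compared alone (adjusted p = 0.0885) and without RC/- 15, 16 or 17 or RC/- D53 24 or 26.

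Car9 encodes carbonic anhydrase IX, a membrane enzyme that helps cells to regulate pH. It was at 8.45, 9.16 and 5.098 CPM in RC/+ and at 4.36, 4.27, 3.02, 1.72 and 1.77 CPM in RC/-, with no overlap, and the difference was -1.36 ± 0.32 (SE), adjusted p = 0.00135. Car9 in RC/- D18 was at 5.52, 4.74, 5.81, 8.497 and 8.35 CPM, all above RC/-, by 1.17 ± 0.27 (SE), adjusted p = 0.00128. This value was 0.85 without libraries 20 to 27 (adjusted p = 0.0595) and 0.85 with them as a covariate (adjusted p = 0.0791), so the call was lost in both. Car9 in RC/- D53 was at 3.86, 9.49, 3.67, 5.11 and 3.25 CPM, with library 24 far above the rest, library 26 just above the highest RC/- library and the other 3 among the RC/- libraries. The difference of 0.72 ± 0.27 (SE), adjusted p = 0.0487 was lost in 17 of the 24 fits without 1 library, was 0.47 without RC/- D53 24 and 0.19 with the covariate, and was no call in the fit to the groups compared alone (adjusted p = 0.125) or without the limit on low values (adjusted p = 0.0793).

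Bnip3 encodes a mitochondrial membrane protein that acts in mitophagy and cell death. It was at 52.8, 58.3 and 61.8 CPM in RC/+ and at 43.8, 40.2, 33.4, 58.8 and 32.2 CPM in RC/-. Of the RC/- libraries, 4 were below all RC/+ libraries and RC/- 16 stood among the RC/+ libraries, with a difference of -0.50 ± 0.13 (SE), adjusted p = 0.00341. Bnip3 in RC/- D18 was at 46.7 to 59.5 CPM, by 0.33 ± 0.11 (SE), adjusted p = 0.0195 against RC/-, a call that was lost with libraries 20 to 27 as a covariate (0.25, adjusted p = 0.233) or left out (0.25, adjusted p = 0.283), in the fit to the groups compared alone (adjusted p = 0.0821) and without RC/- 15, RC/- 17 or RC/- D18 22. Its range in RC/- D53 was 43.01 to 51.5 CPM and the difference was no call, at 0.18, except without RC/- 16 (0.31, adjusted p = 0.009798), and was 0.04 with the covariate. A share of 22.3% of the exon bases of Bnip3 lies opposite the antisense gene Gm45507. Which strand column was kept is not given in the sources used here, so the effect of this overlap on the count of Bnip3 is not known.

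Adm encodes adrenomedullin, a peptide that widens blood vessels. It was at 8.62 to 11.6 CPM in RC/+ and 10.3 to 15.01 CPM in RC/-, which overlapped, and the difference of 0.31 ± 0.13 (SE), adjusted p = 0.0605 was no call, except without RC/+ 5, RC/- 15 or RC/- 17 (0.40, 0.39 and 0.35). Adm in RC/- D53, at 9.24, 9.49, 7.66, 8.73 and 9.92 CPM, was below all RC/- libraries, by -0.51 ± 0.11 (SE), adjusted p = 0.00107, a call lost with the covariate (-0.42, adjusted p = 0.219). For RC/- D18, at 9.22 to 11.9 CPM, the difference was -0.28 ± 0.11 (SE), adjusted p = 0.0484, and this call was lost in 14 of the 24 fits without 1 library and in 7 of the other 8 fits, among them TMM sizes (-0.17), edgeR, DESeq2 and the fits with libraries 20 to 27 as a covariate or left out (-0.23 in both).

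Ankrd37, a small ankyrin-repeat protein gene, was at 2.57 to 5.48 CPM in RC/+, 3.67 to 6.63 in RC/-, 3.15 to 4.79 in RC/- D18 and 2.42 to 4.47 in RC/- D53, and none of the 3 differences was a call (0.34, -0.24 and -0.52). With libraries 20 to 27 as a covariate the D18 and D53 values were -0.08 and -0.25. Of its exon bases 26.4% lie opposite Ufsp2 and Lrp2bp. The same overlap is 12.2% for Epo (with Gnb2 on the same strand), 9.29% for Car9 (with the antisense gene Gm12454) and 8.11% for Hif1a (with Gm15283 and Gm49321), and 0 for the other 5 genes.

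Per kilobase of exon, the 10 genes spanned a wide range of levels in RC/+ kidneys. Vegfa led with 84.1 CPM per kb, followed by Epas1 at 33.1, Hif1a at 28.97, Egln1 at 26.8 and Bnip3 at 25.5 CPM per kb. Egln3 was at 9.93, Adm at 6.43, Car9 at 3.29, Ankrd37 at 2.58 and Epo at 1.94 CPM per kb. In RC/- kidneys Hif1a, at 37.2 CPM per kb, stood above Epas1, at 22.9, and Egln3 rose to 28.1, while Epo fell to 0.312.

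**Figure D3:**
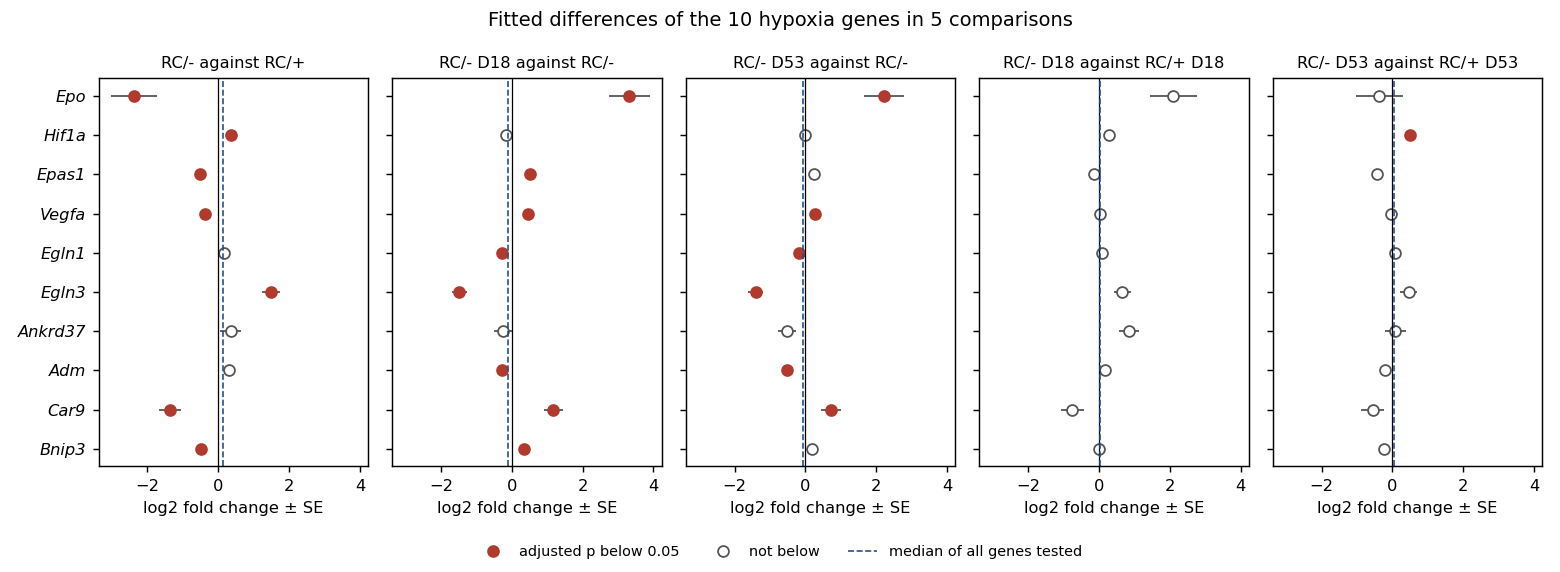
Fitted log2 fold change ± SE of the 10 genes in 5 comparisons, with filled points for an adjusted p below 0.05, and the median of all genes tested as a dashed line. Epo and Egln3 lie farthest from 0 in the 3 left panels and on opposite sides of it, and Hif1a within the D53 line is the 1 call in the 2 right panels.

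Counted over the 10 genes, 2 rose and 5 fell in RC/- against RC/+, where 37.6% of all genes tested were called (25.5% higher, 12.2% lower). On the log2 scale the median difference was -0.11 over the 10 and 0.14 over all genes. With TMM sizes, which brought the median of all genes to 0.01, 1 rose and 5 fell. Against RC/-, 5 rose and 3 fell in RC/- D18 (41.2% of all genes called, medians 0.09 and -0.10), or 5 and 1 with TMM sizes. With libraries 20 to 27 left out 5 were called, beside 6051 of all 22902 genes tested. Against the RC/- libraries, 3 rose and 3 fell in RC/- D53 (30.2% called, medians 0.09 and -0.08), or 4 and 2 with TMM sizes. With libraries 20 to 27 as a covariate 2 were called there, Epo and Egln3. As the genes were chosen with earlier results known, these counts are a description.

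Within each edited line, few differences passed the threshold between RC/- and RC/+ kidneys. In RC/- D18 against RC/+ D18, limma called 0 of the 10 genes (0.266% of all genes called), and edgeR and DESeq2 called 0 as well. At an unadjusted p below 0.05 limma had 5 of the 10, beside 2011 of all 22570 genes tested. Ankrd37, at 0.85 (adjusted p = 0.313), became a call without RC/+ D18 7 (1.35, adjusted p = 0.0435). Egln3 differed by 0.66 ± 0.24 (SE), adjusted p = 0.361, with every RC/- D18 library (22.7 to 31.5 CPM) above the RC/+ D18 libraries (11.4 to 20.2 CPM). Within the D53 line, RC/- D53 against RC/+ D53, 1 gene was called (2.6% of all genes). This was Hif1a, at 0.48 ± 0.12 (SE), adjusted p = 0.0233, with 167, 149 and 153 CPM in RC/+ D53 and all 5 RC/- D53 libraries above. The call was lost with the covariate (0.43, adjusted p = 0.269) and without RC/+ D53 11 or 12 or RC/- D53 23 or 27. Epas1 was at -0.44 (adjusted p = 0.0604), and was called with TMM sizes, edgeR, DESeq2, in the fit to the groups compared alone and without RC/+ 5, RC/- D18 22 or RC/- D53 25, with TMM at -0.48 (adjusted p = 0.0199). With the covariate it was -0.29 (adjusted p = 0.488).

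In noncystic kidneys, none of the 10 genes passed the threshold between edited and unedited mice. In RC/+ D18 against RC/+, limma, edgeR and DESeq2 called 0 of them (0.00443% of all genes by limma). At an unadjusted p below 0.05 limma had 3 of the 10, beside 1013 of all 22570 genes. Epo differed there by -1.16 ± 0.73 (SE), adjusted p = 0.983, or -0.28 without RC/+ D18 9 and -1.83 without RC/+ D18 7. In RC/+ D53 against RC/+ all 3 tools called 0 (0% of all genes by limma), with 0 at an unadjusted p below 0.05 (525 of all 22570 genes by limma). Epo differed there by 0.21 ± 0.73 (SE), which turned negative without RC/+ 6 or RC/+ D53 10 (-0.16 and -0.29). Between the cystic edited lines, RC/- D53 against RC/- D18, all 3 tools called 0 (0.266% of all genes by limma), with 3 at an unadjusted p below 0.05 (2993 of all 22570 genes by limma).

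The D18 interaction called Epo alone of the 10 genes (17.1% of all genes), and 4 with TMM sizes, edgeR or DESeq2, which added Epas1, Vegfa and Bnip3. Vegfa was at 0.42 ± 0.15 (SE), adjusted p = 0.0525, and it passed with libraries 20 to 27 as a covariate (0.55, adjusted p = 0.0302), with them left out (adjusted p = 0.0449) and without RC/- 13, RC/- 14, RC/- D53 24 or RC/- D53 27. The D53 interaction called 0 of the 10 genes in limma and edgeR (11.3% of all genes by limma), 1 with TMM sizes (Vegfa) and 2 in DESeq2 (Vegfa and Egln3). At an unadjusted p below 0.05 limma had 4 and edgeR 5 of the 10, beside 5782 of all 22570 genes by limma. Vegfa was at 0.35 (adjusted p = 0.136) in the limma fit, and at 0.42 without RC/- 13 (adjusted p = 0.0386), while the covariate gave 0.56 (adjusted p = 0.128).

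The other genes of the pathway were read from fixed lists, in which the genes were chosen with earlier results known. Every count of a pathway or marker list reads against the share of all genes called in its comparison, which was 37.6% in RC/- against RC/+ (25.5% higher, 12.2% lower), 41.2% in RC/- D18 against RC/-, 30.2% in RC/- D53 against RC/-, 0.266% within the D18 line and 2.6% within the D53 line. At an unadjusted p below 0.05 limma had, in the same order, 10274, 10911, 8842, 2011 and 3013 of all 22570 genes. Among 10 further HIF subunits and parts of the sensing machinery, 2 rose and 1 fell in RC/- against RC/+, with a median of 0.09 against 0.14 over all genes. Elob, the elongin B subunit of the VHL ligase, rose by 0.41 and Rbx1, its RING subunit, by 0.17, while Arnt2, a partner subunit of HIFs, was at -0.37. Arnt, the main partner of the α subunits, was at 0.15, Vhl at 0.19 and Hif1an, the asparagine hydroxylase that inhibits HIFs, at 0.06, and these were no calls. Against RC/-, 0 rose and 4 fell in RC/- D18 (Elob, Eloc, Rbx1 and Vhl), and in RC/- D53, 0 rose and 3 fell (Elob, Vhl and Egln2). With TMM sizes 1 rose and 1 fell in RC/- against RC/+, 1 rose and 2 fell in D18 and 1 rose and 1 fell in D53.

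Of 28 other HIF targets, 12 rose, 5 fell and 11 were not called in RC/- against RC/+, beside 25.5% higher and 12.2% lower among all genes. The largest increases were those of Edn1, the precursor of the vasoconstrictor endothelin-1, Hmox1, which degrades heme, and Pgf, a growth factor of the Vegfa family. Edn1 stood at 18.2 ± 3.899 CPM in RC/- (SD, n = 5) against 6.86 ± 0.989 in RC/+ (SD, n = 3), a difference of 1.38 ± 0.18 (SE), adjusted p = 1.76e-06. Hmox1 rose by 1.31 and Pgf by 1.19. The largest decreases were those of Angpt2, a ligand of the vascular receptor Tek, at -1.08, Ndrg1 at -0.73 and Tfrc, the transferrin receptor, at -0.52. So within this list, as among the 10 genes, HIF targets went both ways. With TMM sizes 8 rose and 7 fell, and the median of the list was 0.20 (0.06 with TMM sizes) against 0.14 (0.01) over all genes.

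**Figure D4:**
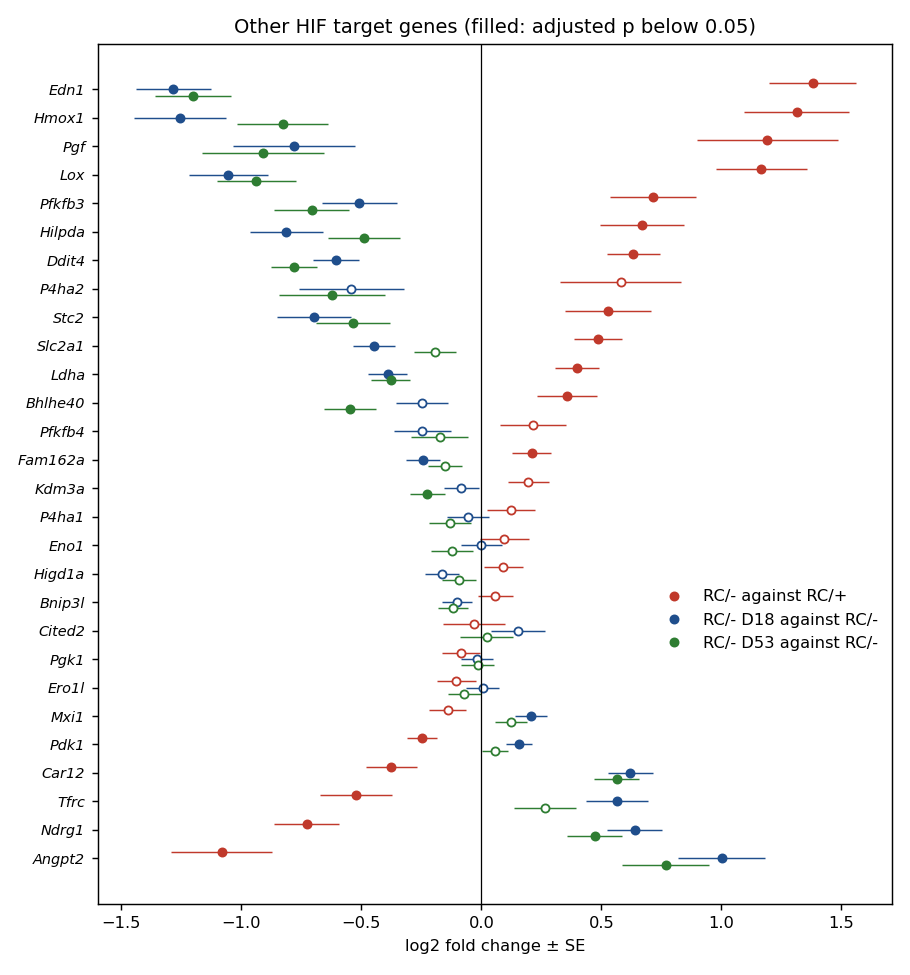
Fitted log2 fold change ± SE of 28 other HIF targets in RC/- against RC/+ (red), RC/- D18 against RC/- (blue) and RC/- D53 against RC/- (green), filled where the adjusted p is below 0.05. All 3 comparisons share the RC/- libraries, and Edn1 is the most increased in RC/- against RC/+ and the most decreased in the other comparisons.

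Against RC/-, 6 of these 28 targets rose and 11 fell in RC/- D18, or 6 and 9 with TMM sizes, and in RC/- D53, 3 rose and 12 fell, or 5 and 10 with TMM sizes. Edn1 fell by 1.28 in D18 and by 1.20 in D53, and Lox, which crosslinks collagen, fell by 1.05 and 0.94. Hmox1 fell by 1.26 in D18, and Pgf fell by 0.91 in D53. Angpt2 rose by 1.002 and 0.77, Ndrg1 by 0.64 and 0.47, and Car12, another membrane carbonic anhydrase, by 0.62 and 0.56. With libraries 20 to 27 as a covariate, 4 rose and 9 fell in D18 and 1 rose and 2 fell in D53. Within the D18 line limma, edgeR and DESeq2 called 0 of the 28, with 4 at an unadjusted p below 0.05 by limma. Within the D53 line each tool called 1, and in limma it was Slc2a1, the glucose transporter GLUT1, at 0.50 (adjusted p = 0.00442), and with the covariate limma called 0.

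Among the receptors, Epor had the largest difference. Of 10 genes for receptors and Epo signalling, 2 rose and 1 fell in RC/- against RC/+ (1 and 3 with TMM sizes), with a median of 0.03. Epor, the receptor of Epo, stood at 17.3 ± 2.67 CPM in RC/- (SD, n = 5) and 8.21 ± 1.37 in RC/+ (SD, n = 3), a rise of 1.06 ± 0.16 (SE), adjusted p = 1.17e-05, the reverse of the direction of Epo. Against RC/- it fell by 0.78 in D18 (adjusted p = 7.48e-05) and by 0.74 in D53 (adjusted p = 0.000264). Jak2, the kinase bound to that receptor, rose by 0.22 in RC/- against RC/+, and Kdr, the main receptor of Vegfa on endothelium, was at -0.35, a call. Of these receptor genes, 2 rose (Kdr and Flt1) and 2 fell (Epor and Jak2) in RC/- D18 against RC/-, or 3 and 1 with TMM sizes. For RC/- D53 0 rose and 3 fell (Epor, Jak2 and Stat5a), or 2 and 2 with TMM sizes. Within the edited lines limma, edgeR and DESeq2 called 0 of the 10, with 0 (D18) and 3 (D53) at an unadjusted p below 0.05 by limma.

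Of 4 tested transcription factors known to act on the Epo gene, all were called in RC/- against RC/+, where 37.6% of all genes were. Hnf4a, which binds the Epo enhancer in liver and is a factor of proximal tubule cells, was at -1.22 ± 0.13 (SE), adjusted p = 1.21e-07, and Rxra, its fellow nuclear receptor, at -0.27. Gata2 and Gata3, described as repressors at the Epo promoter, rose by 1.42 and 2.02. Gata3 is also a gene of the collecting duct, and the collecting duct markers rose in the same kidneys, 4 of 5 of them. Gata3 stood at 105 ± 7.63 CPM in RC/- (SD, n = 5) and 26.1 ± 6.32 in RC/+ (SD, n = 3). Against RC/- it fell by 1.50 in D18 and by 1.03 in D53, while Hnf4a rose by 1.20 and 0.97. Gata2 and Gata3 were also higher within both edited lines, Gata3 by 0.77 in D18 (adjusted p = 0.00209) and by 1.30 in D53 (adjusted p = 3.13e-07). With the covariate neither was called within the D18 line. The part of these factors in the Epo result, and of collecting duct content in the Gata3 values, was not tested.

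Markers of the cells that make or respond to Epo were read beside it. The 8 markers of interstitial fibroblasts and pericytes, the cell class that produces Epo, summed to 599 to 745 CPM in RC/+, 595 to 892 in RC/-, 483 to 867 in RC/- D18 and 615 to 784 in RC/- D53, and these ranges overlapped. In RC/- against RC/+, 2 of the 8 rose (Gli1 by 1.03 and Cspg4 by 0.64) and 1 fell (Nt5e, at -0.64). Pdgfrb was at 0.21, no call, and 2 rose and 2 fell with TMM sizes. Nt5e encodes the ecto-nucleotidase CD73 and is listed here for peritubular fibroblasts. It rose by 0.61 in D18 and 0.37 in D53 against RC/-, where the other markers of the list are not given. The summed proximal tubule markers moved the same way, with means of 5787 CPM (RC/+), 2144 (RC/-), 5874 (D18) and 4599 (D53). Whether Nt5e followed fibroblast or tubule content was not tested. Myofibroblast markers summed to 2799 to 4584 CPM in RC/- against 1079 to 1544 in RC/+, with 5 of 6 higher, Acta2 by 2.20. All 6 fell against RC/- in D18 and in D53, but 4 did so in D18 and 0 in D53 with libraries 20 to 27 as a covariate. The part of these cells in the Epo result was not tested.

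**Figure D5:**
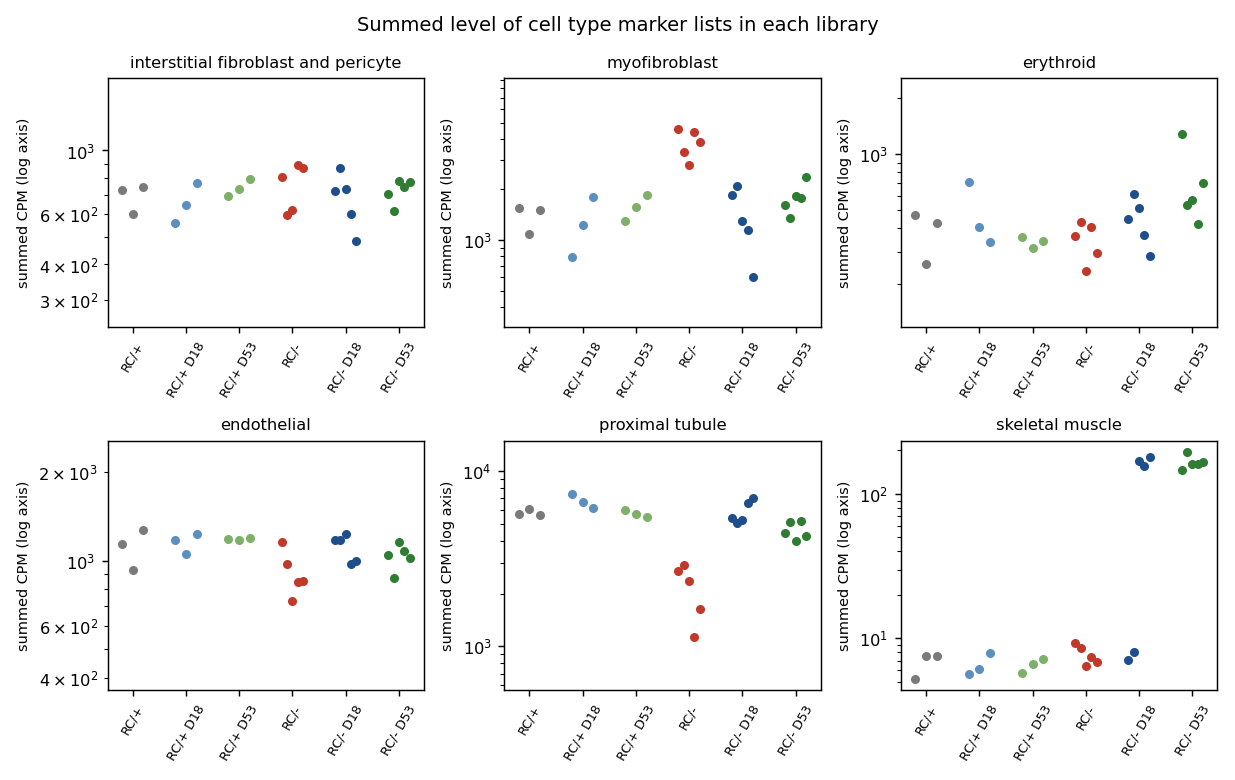
Summed CPM of 6 marker lists in each library, on log axes, by group. The interstitial fibroblast and pericyte list overlaps between all groups, myofibroblast genes are highest and proximal tubule genes lowest in RC/-, and the skeletal muscle list is raised in the 8 libraries 20 to 27.

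The erythroid list of 6 genes (mainly globins, from red cells and their precursors in the kidney's blood) summed to 235 to 435 CPM in RC/- and 258 to 473 CPM in RC/+, and limma called 0 of them, with 0 at an unadjusted p below 0.05. It was 419.9 to 1281 CPM in RC/- D53, where 5 of 6 rose against RC/- (Hba-a1 by 0.98), and 283 to 612 CPM in RC/- D18, where limma called 0, again with 0 at an unadjusted p below 0.05. With libraries 20 to 27 as a covariate 2 rose in D53. The part of red cell content in the Epo values was not tested.

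Endothelial markers fell in part in RC/- against RC/+, with 3 of 6 lower (Emcn, Plvap and Tek) and Pecam1 at 0.00, Cdh5 at 0.07 and Eng at 0.08. All 6 macrophage markers rose and all 6 proximal tubule markers fell, with Slc34a1 at -1.58 in that comparison. Of the thick ascending limb and distal tubule markers 4 of 5 fell, with Egf at -2.98, and of the podocyte markers, where Vegfa is made in quantity, 4 of 5 fell (Nphs1 at -1.32) and Synpo rose. Against RC/-, in both edited cystic groups, all 6 proximal tubule markers rose (2 in D53 with the covariate) and all 6 macrophage markers fell (5 with TMM sizes), and podocyte markers rose for 4 of 5 in each. The part of these shifts in the values of Vegfa, Epas1, Car9, Bnip3 and Egln3 was not tested.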

How the data were processed

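Whole kidneys of 18-day-old mice were profiled by RNA-seq, with 1 library for each of 24 mice. The authors trimmed paired reads with Trim Galore 0.6.3 and aligned them to GRCm38 with STAR 2.5.3a, which counted reads per Ensembl gene. The deposited table holds raw read counts, and the number of columns not used was 0. Which strand column was kept is not given in the sources used here. Groups followed the genotype labels. Totals were 20.4 to 30.8 M counts per library, and the chi-square per degree of freedom between libraries of a group was 8.45 to 48.2 over 39 pairs, so none was a copy.

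CPM used total counts. As in the study's methods, limma-trend (limma 3.58.1, R 4.3.3) was fitted to log2 CPM (edgeR 4.0.16, prior count 2) for 22570 of 54532 genes, those whose mean log2 CPM reached -3, with 6 group means in 1 fit to all 24 libraries, since no model design is stated there. Tests were two-sided, with Benjamini-Hochberg adjustment over all genes of each of 10 comparisons, and were tested on simulated data. Alternatives were TMM sizes, edgeR's quasi-likelihood test, DESeq2 1.42.0, no limit on low values, a prior count of 0.5, the groups compared alone, libraries 20 to 27 as a covariate or left out (the last chosen after seeing the data), and each library left out. Labels do not say more of how mice were replicated than 1 number each, so p-values measure the spread between these libraries.

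The 10 genes and all lists were chosen with earlier results of these data known. Text names all 10 genes, the called genes with the 3 largest changes each way in a pathway list, genes of the 3 smaller pathway lists, and the 5 genes most like Epo. Marker genes were named as examples after their values were seen. Aldoa (on 2 rows) and Ahsp (no row) were left out, 1 further listed HIF target is not reported here, and Gata4 did not pass the limit on low values. Exon lengths and overlaps came from GENCODE M21, in which 54409 of the 54532 identifiers were found, and promoter windows from RefSeq for GRCm38.p6.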

Additional observations from a re-analysis of the deposited data

Results flagged for a closer look

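In the RC/- D18 group, library 21 had an Epo level of 0.506 CPM, and its gap to the next of the 5 libraries was 0.73 of the group's range, above Dixon's limit of 0.71. It was the 1 flag among 30 sets of 5 libraries tested over the 10 genes, and chance flags about 1 in 20. Without this library the difference from RC/- was 3.92 in place of 3.32 on the log2 scale.

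The cystic difference of Epo differed between the D18 line and the unedited mice, with an interaction of 4.48 ± 0.93 (SE; limma, adjusted p = 0.00158), made of 2.11 within the D18 line and -2.38 in the unedited mice. The RC/+ D18 group of 3 held a library at 3 counts (library 9), and without it the interaction was 3.60 (adjusted p = 0.00943).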

How the results depend on the processing

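Counts below are of the 10 genes. For RC/- D18 against RC/- the count of 8 became 5 with libraries 20 to 27 as a covariate and 5 with them left out. The calls among all genes fell too, from 9305 of 22570 to 6218 of 22570 and 6051 of 22902. For RC/- D53 against RC/- the count of 6 became 2 with the covariate and 3 in the fit to the groups compared alone, and was 3 to 6 with single libraries left out. For RC/- D53 against RC/+ D53 the count of 1 became 2 with TMM sizes, edgeR, DESeq2 and the groups compared alone, 0 with the covariate, and 0 to 2 with single libraries left out. For RC/- D18 against RC/+ D18 it was 0 to 1 with single libraries left out. For the D18 interaction the count of 1 became 4 with TMM sizes, edgeR and DESeq2, 2 with the covariate and 2 with libraries 20 to 27 left out, and was 1 to 3 with single libraries left out. For the D53 interaction the count of 0 became 1 with TMM sizes and 2 in DESeq2, and was 0 to 2 with single libraries left out. In RC/- against RC/+ it was 6 to 9 with single libraries left out, around a count of 7, while 7050 to 8796 of all genes were called.

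Directions turned for Hif1a in RC/- D53 against RC/- (-0.051 with the covariate and -0.065 to 0.075 with single libraries left out, around 0.00), for Epo in RC/- D53 against RC/+ D53 (0.86 with the covariate and -0.86 to 0.14 with single libraries left out) and for Epo in RC/+ D53 against RC/+ (-0.29 to 0.71 with single libraries left out). None of these was a call, and the cause of each change was not tested. The covariate value of Epo rests on a contrast that includes RC/- D18 21, the library flagged above. No paired analysis was possible because the groups share no replicate numbers. Epo has 2 to 119 counts per library, so its values carry more counting error than those of the other genes.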
